A study of Mus musculus with 4 samples.

Results

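Ribosomal RNA fragments were examined in small RNA libraries from plasma small extracellular vesicles (sEVs, tiny membrane-bound packages shed by cells) of mice. Rows of the other RNA tables were to be taken where their Ensembl transcript had the GENCODE M21 gene type rRNA or Mt_rRNA, together with the transcript of Gm42418. Of the 411 rows listed in any other RNA table, 0 had either type, so that the only transcript found by annotation was Gm42418, 1 of 1146 features in all tables. Another 2 rows carry ribosomal names in place of a transcript identifier, Mus_musculus_45S and Mus_musculus_18S, and were added after the files had been read. The 3 ribosomal rows, called 45S, 18S and Gm42418 below, are described together, beside the number of reads that the authors' summary puts in an rRNA class. All 3 rows were listed in all 4 libraries, far above the 10 unique molecular identifiers (UMIs, random tags that count each captured molecule once) at which the deposited tables begin. The rows were chosen by name and annotation among features listed above that floor, with earlier results of these data known.

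The groups were MI, 2 libraries of wild-type mice taken 12 h after surgery that caused a myocardial infarction, and sham, 2 libraries of wild-type mice taken 12 h after sham surgery. All mice were on a normal diet. The labels do not say whether replicates came from separate or pooled animals, and the p-values reflect the spread of these 4 libraries alone, part or all of which may be technical. The MI libraries held 14455043 and 11872840 total reads and 872459 and 606756 tabulated UMIs, and the sham libraries 24626952 and 12955563 total reads and 1523731 and 746567 tabulated UMIs. Read set names in the file headers carry the word plus for replicate 2 of both groups and begin with M2 for the MI libraries, and no source used here gives the meaning of either. Of 11 miRNA markers of plasma, blood cells, liver, heart and endothelium, 9 were listed in all 4 libraries and the heart muscle miRNA miR-499-5p in none.

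Ribosomal RNA makes up most of the RNA of a cell. RNA polymerase I transcribes repeated ribosomal DNA into a 45S precursor that holds, in order, an external spacer, the 18S RNA of the small subunit, an internal spacer, the 5.8S RNA, a further internal spacer and the 28S RNA of the large subunit. Small nucleolar RNAs (snoRNAs) pair with the precursor and guide its cleavage and modification. Fragments of these RNAs are a regular part of small RNA libraries from plasma and vesicles.

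Gm42418 is annotated as a long intergenic non-coding RNA, but most of its sequence is that of 18S ribosomal RNA. On GRCm38 its single exon lies on chromosome 17 from 39846958 to 39848788, plus strand, and spans 1831 bases. An 18S copy of 1849 bases lies from 39846353 to 39848201, where GENCODE annotates the rRNA gene CT010467.1 on the minus strand. The RefSeq table names Gm42418 as a synonym of the 18S pseudogene Rn18s-rs5 at this place. Read on the plus strand, bases 606 to 1849 of the 18S copy are the first 1244 bases of Gm42418, with 1244 of 1244 identical. These are 67.9% of Gm42418 and 67.3% of the 18S copy. The remaining 587 bases of Gm42418 follow the 18S end, where the first internal spacer of a ribosomal repeat lies. Their GC content is 71.0%, against 55.1% in the 18S part.

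The following stretches, read from the GENCODE M21 transcripts on GRCm38 and written 5′ to 3′ on the plus strand, show where the 2 sequences part. The first lies in the 18S copy before Gm42418 begins. In the second, capitals start at the first base of Gm42418. In the third, capitals are the end of the 18S copy and the lower case letters are the spacer that Gm42418 runs into.
18S copy, first bases (chr17:39846353-39846412): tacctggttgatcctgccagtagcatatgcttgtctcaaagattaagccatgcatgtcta
Start of Gm42418 (chr17:39846928-39847017): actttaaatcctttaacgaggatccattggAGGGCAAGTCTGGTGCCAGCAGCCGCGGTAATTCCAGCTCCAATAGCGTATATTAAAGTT
End of 18S in Gm42418 (chr17:39848142-39848261): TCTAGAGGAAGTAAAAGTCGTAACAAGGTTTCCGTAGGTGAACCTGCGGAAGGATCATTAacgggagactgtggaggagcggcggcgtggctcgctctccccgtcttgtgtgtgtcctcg
A fragment from the capitals of the second stretch matches 18S RNA and Gm42418 equally. No source used here gives the rule by which the authors placed such a read in 1 row, or the sequences behind the rows named 45S and 18S. The split of UMIs among the 3 rows is therefore uncertain, and the sum over them was followed as well. No source used here says whether strand was used in counting, so that reads of the minus-strand annotations at this place cannot be told apart from those of Gm42418 either. None of the 406 other listed transcripts with a GENCODE sequence shared a run of 20 bases with the 18S copy or Gm42418, and 1, Gm4117, shared a run of 16.

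**Figure D1:**
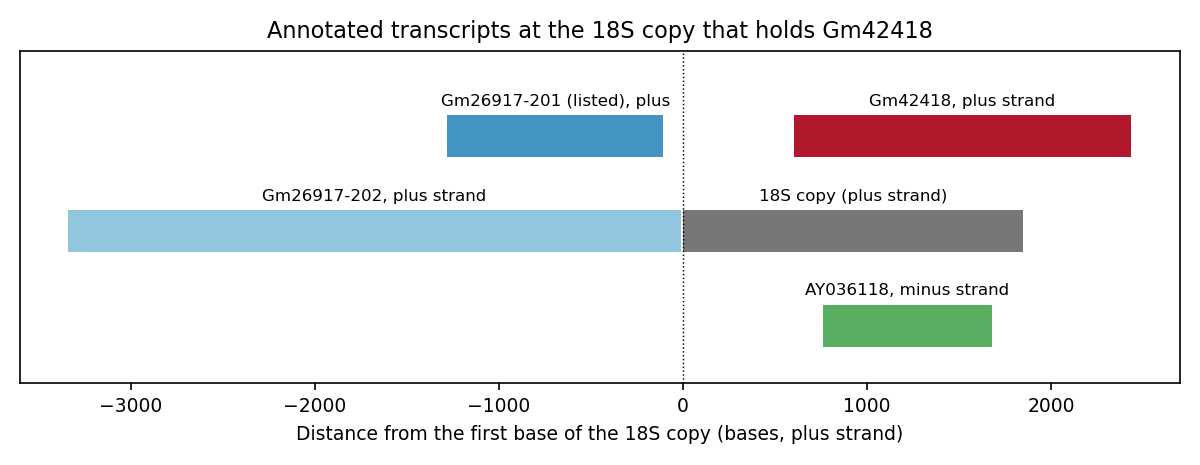
Annotated transcripts around the 18S copy, by distance in bases from its first base on the plus strand, with 1 bar per transcript and its strand in the label. Gm42418 begins at 605 bases, inside the 18S copy, and runs past its end at 1848 bases to 2435 bases. AY036118 lies on the minus strand within the 18S copy, and Gm26917-201 ends 108 bases before it.

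The 45S row took the largest part of the ribosomal UMIs and was 1 of the 2 largest rows of every library. It held 132490 and 139519 UMIs in the MI libraries, and 147381 and 97658 UMIs in the sham libraries. Divided by the UMIs of all tables, these are 151858 and 229943 UMIs per 1000000 UMIs (UPM) in the MI libraries, against 96724 and 130809 UPM in the sham libraries. Both MI libraries lay above both sham libraries, by 1.68-fold between the means. The 45S row ranked first of all rows in both MI libraries. In both sham libraries it ranked second, behind the glycine tRNA tRNA-Gly-GCC-2-4, which had 149145 and 150481 UPM in the MI libraries and 214271 and 200249 UPM in the sham libraries. In percent, 45S made up 19.1 ± 5.52% of UMIs in MI and 11.4 ± 2.41% in sham libraries (SD, n = 2 each).

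The 18S row had 10623 and 16236 UPM in the MI libraries, against 6424 and 9699 UPM in the sham libraries. Its groups did not overlap either, and the means of 13429 ± 3969 UPM in MI and 8062 ± 2316 UPM in sham libraries (SD, n = 2 each) gave a 1.67-fold ratio. Gm42418 had 2894 and 4661 UPM in the MI libraries, against 1761 and 3124 UPM in the sham libraries. Here the groups overlapped, because sham replicate 2 lay above MI replicate 1. Their exact Poisson intervals, 2782 to 3009 UPM for MI replicate 1 and 2998 to 3253 UPM for sham replicate 2 (95%, counting error only), overlapped too. The means of Gm42418 were 3777 ± 1249 UPM in MI and 2442 ± 963.7 UPM in sham libraries, a 1.55-fold ratio. Both MI libraries stood above both sham libraries for 2 of the 3 rows, and also for 39.0% of the 418 features listed in all 4 libraries.

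**Figure D2:**
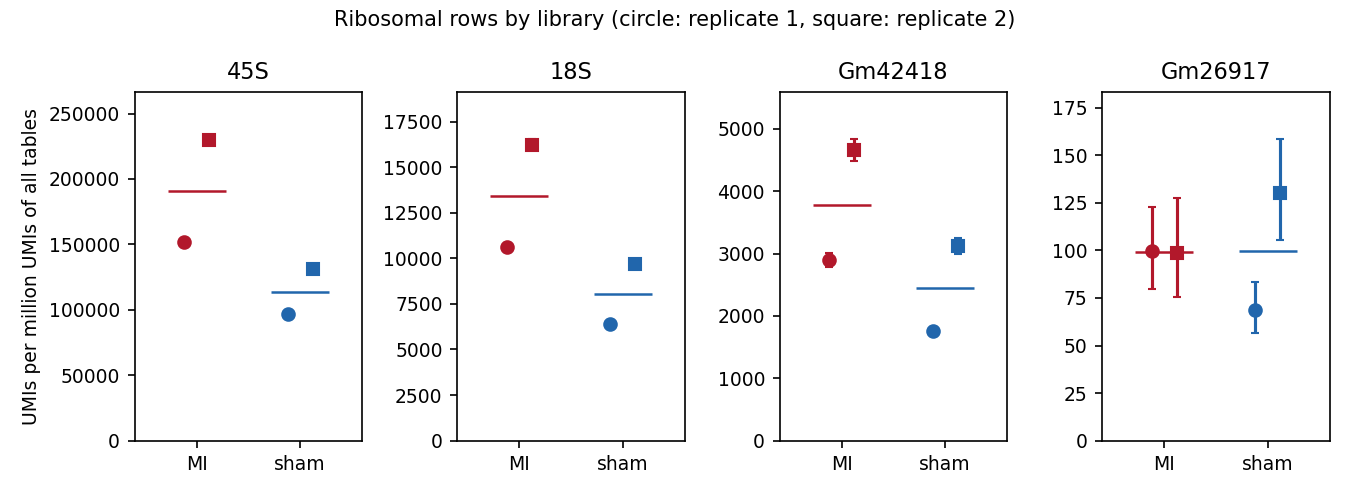
UPM, over the UMIs of all tables, for 45S, 18S, Gm42418 and Gm26917 in each library, MI left of sham, on linear axes from 0. Points are libraries, error bars are 95% exact Poisson intervals and horizontal lines are group means. For 45S, 18S and Gm42418 the lower MI library lies near the higher sham library, above it in 45S and 18S and below it in Gm42418.

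None of the 3 rows passed the test between groups. The log2 fold change of MI over sham was 0.56 (SE 0.34) for 45S in the edgeR quasi-likelihood fit over all tables, with an adjusted p of 0.432. It was 0.55 (SE 0.34, adjusted p = 0.438) for 18S and 0.44 (SE 0.41, adjusted p = 0.636) for Gm42418, and the median over all 638 tested features was 0.15. The count of 0 called of 3 rows stands against 6.74% of all tested features called, 5.8% higher and 0.94% lower in MI. Among the 219 tested features of the other RNA table, to which the rows belong, this fit called 30 higher and 0 lower. Their median log2 fold change was 1.38, above the values of all 3 rows, and some of them were unlisted in some libraries. Below an unadjusted threshold of 0.05 were 0 of the rows and 150 of all features in edgeR. In the DESeq2 Wald test 45S alone of the rows was below it, with an adjusted p of 0.223. That background rests on all libraries being present. No feature was called without MI replicate 1, MI replicate 2 or sham replicate 1, and 20 were without sham replicate 2.

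The libraries of replicate 2 had higher ribosomal UPM than those of replicate 1 within each group. For 45S the ratio of replicate 2 to replicate 1 was 1.51 in MI and 1.35 in sham libraries, and for Gm42418 it was 1.61 in MI and 1.77 in sham libraries. Taken within each replicate number, and so within libraries with and without the plus in their names, the MI over sham ratio of 45S was 1.57 for replicate 1 and 1.76 for replicate 2. For 18S the ratios were 1.65 and 1.67, and for Gm42418 1.64 and 1.49, each from 1 library per group. Reads too short to use, which the summary counts before any class, were 28.2% and 35.8% of total reads in the MI libraries and 20.3% and 32.1% in the sham libraries. That share was higher in replicate 2 of both groups as well, and its part in the ribosomal values was not tested. In bulk vesicle RNA, more ribosomal fragments per vesicle and fewer fragments of other RNA cannot be told apart.

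The direction of the ribosomal difference depended on what the UMIs were divided by. Summed over the 3 rows, ribosomal UMIs were 165375 and 250839 UPM in the MI libraries, against 104909 and 143632 UPM in the sham libraries, a log2 ratio of means of 0.74. Undivided, the same sums were 144283 and 152198 UMIs in MI and 159853 and 107231 UMIs in sham libraries, so that the groups overlapped. Per miRNA UMI, 45S had 0.605 and 1.03 UMIs in MI and 0.391 and 0.609 in sham libraries, with sham replicate 2 just above MI replicate 1. Per tRNA UMI, 45S had 0.272 and 0.463 UMIs in MI and 0.152 and 0.207 in sham libraries, a 2.05-fold ratio without overlap. As a share of the other RNA table, the order turned round: 45S made up 80.2% and 82.7% of its UMIs in MI and 84.4% and 85.4% in sham libraries. Fitted within that table alone, the log2 fold change was -0.45 for 45S, -0.45 for 18S and -0.54 for Gm42418, with no row called (edgeR adjusted p = 0.398, 0.276 and 0.269). Of all 233 features tested there, 0 were called, and 67 had an unadjusted p below 0.05.

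**Figure D3:**
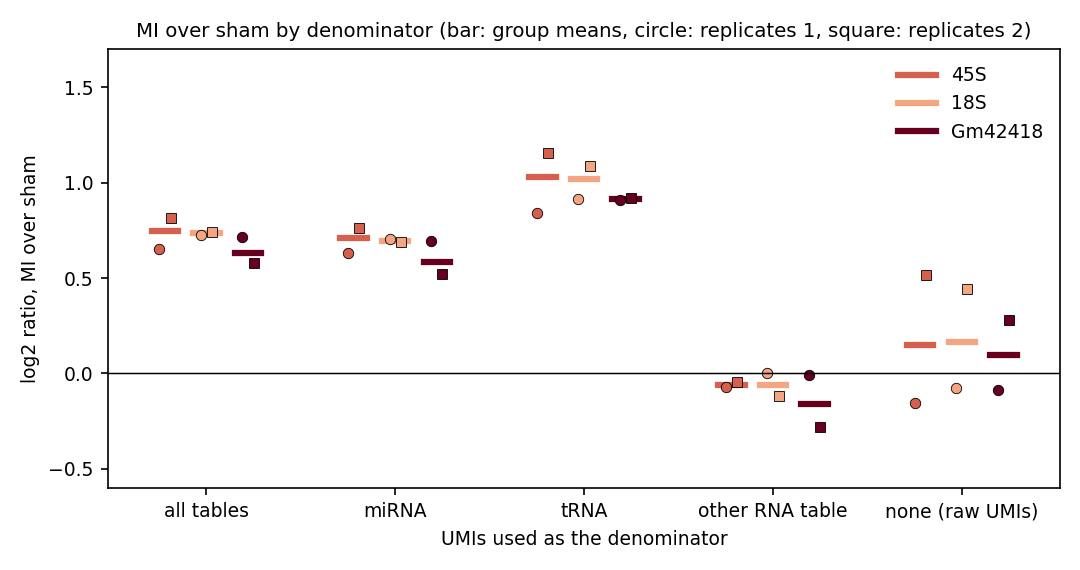
The log2 ratio of MI over sham for 45S, 18S and Gm42418 with 5 choices of denominator, where bars are ratios of group means, circles compare the replicates 1 and squares the replicates 2. The bars lie at 0.63 to 0.75 over all tables and at 0.92 to 1.03 over tRNA, and at -0.16 to -0.06 over the other RNA table.

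The rest of the other RNA table stood further from sham than the ribosomal rows did. Without the 3 rows it held 20939 and 16600 UMIs in MI and 14794 and 7160 UMIs in sham libraries. These are 2.40% and 2.74% of all UMIs in MI, against 0.971% and 0.959% in sham libraries, a 2.66-fold ratio without overlap. The 111 non-ribosomal features of that table that were listed in all 4 libraries had a median MI over sham ratio of 2.30, and 79 of them had a ratio above that of 45S. The tRNA table, with 104 such features, had a median ratio of 1.00, and 189 miRNAs had one of 1.04. Both MI libraries stood above both sham libraries for 73.7% of the 114 features of the other RNA table that all 4 libraries listed, the ribosomal rows included. Features listed in only some libraries were left out of these medians. The other RNA table listed 257 and 250 non-ribosomal features in MI and 270 and 158 in sham libraries, with fewest in sham replicate 2.

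**Figure D4:**
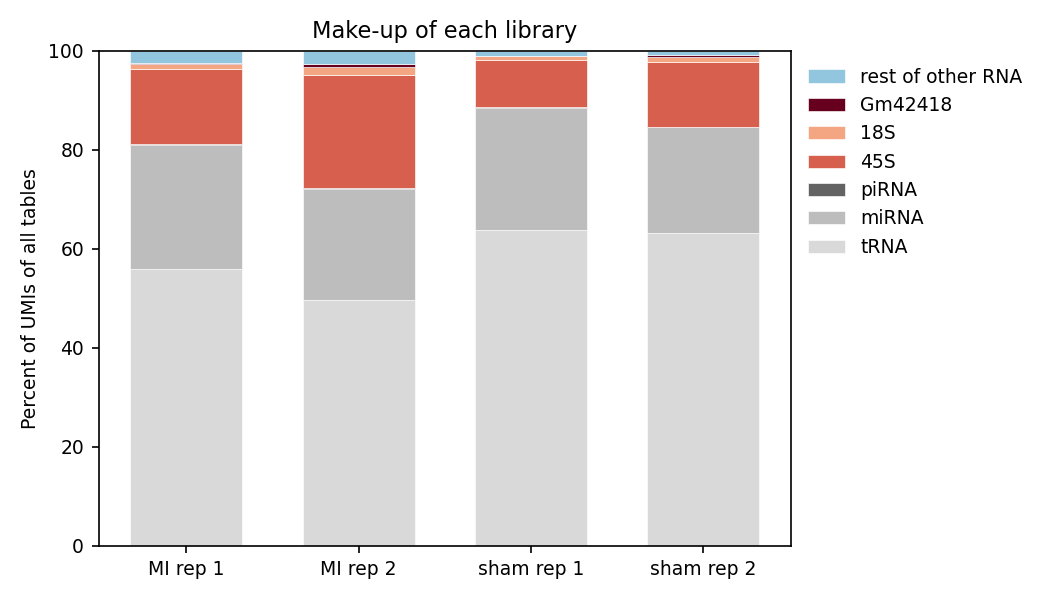
Percent of the UMIs of all tables in each class, with 1 stacked bar per library and the MI libraries on the left. The 45S segment is 15.2% and 23.0% in the MI libraries and 9.67% and 13.1% in the sham libraries, and the tRNA segment is 55.9% and 49.7% in MI and 63.7% and 63.1% in sham libraries.

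The ratios between the ribosomal rows overlapped between the groups. These are ratios of UMI counts that are not corrected for length, so they serve to compare libraries and not levels of the RNAs. For 100 UMIs of 45S, the 18S row had 7.0 and 7.06 UMIs in the MI libraries, and 6.64 and 7.41 UMIs in the sham libraries. The means were 7.03 ± 0.0463% in MI and 7.03 ± 0.546% in sham libraries (SD, n = 2 each). Gm42418 stood at 1.91% and 2.03% of 45S in MI, and at 1.82% and 2.39% in sham libraries. Relative to 18S, Gm42418 stood at 27.2% and 28.7% in MI, and at 27.4% and 32.2% in sham libraries. The groups overlapped in each of these 3 ratios, and sham replicate 2 was the highest in each.

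**Figure D5:**
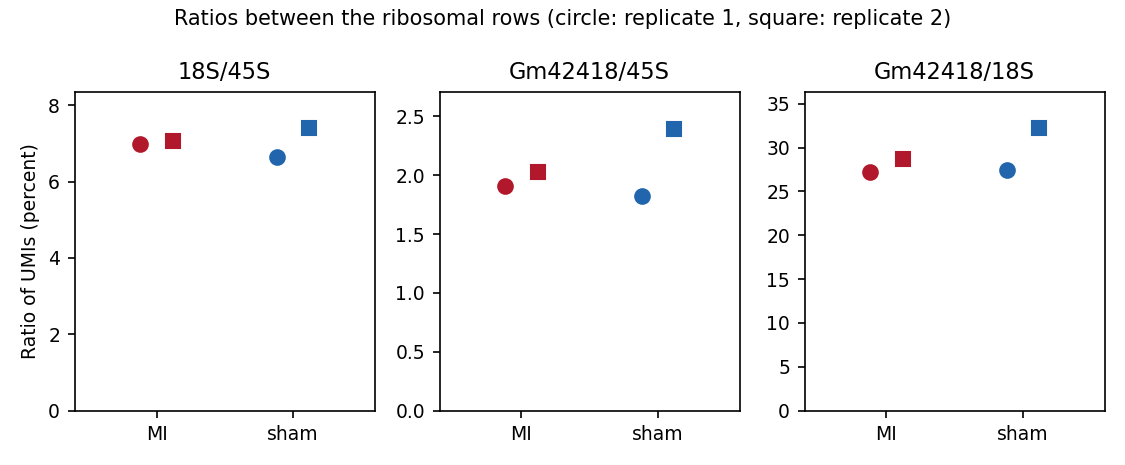
Ratio of UMIs between ribosomal rows in percent, MI left of sham, with circles for replicates 1 and squares for replicates 2 and axes from 0. In each panel the highest point is sham replicate 2, at 7.41% for 18S over 45S, 2.39% for Gm42418 over 45S and 32.2% for Gm42418 over 18S.

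Gm26917 is the other listed transcript beside the 18S copy. It is annotated upstream of the 18S copy, and its longer transcript ends 11 bases before it, on the side where the external spacer of a ribosomal repeat lies. The listed transcript Gm26917-201 (chromosome 17, 39845074 to 39846245, plus strand) had 99.7 and 98.9 UPM in the MI libraries and 68.9 and 129.9 UPM in the sham libraries. The MI values lay between the sham values, and the fitted log2 fold change was -0.19 (SE 0.38, edgeR adjusted p = 0.852). Within the other RNA table alone it was -1.12 (edgeR adjusted p = 0.0760), without TMM 0.01 and without sham replicate 2 0.21, and Gm26917 was called in none of these fits. For 100 UMIs of 45S, Gm26917 had 0.0657 and 0.0430 UMIs in MI, against 0.0712 and 0.0993 UMIs in sham libraries, which did not overlap. These rest on 87 and 60 UMIs in MI and 105 and 97 UMIs in sham libraries, and the difference of this ratio between groups was not tested. Of a list of 10 gene names of loci known or thought to hold ribosomal sequence, Gm26917 was the only one found by name. Some of these names are protein-coding genes. No feature counts of messenger RNA were used here, so their absence says little. AY036118, which lies antisense within the 18S copy, was not among the listed features. Rn18s-rs5, of which Gm42418 is a RefSeq synonym, is on the list too, so its locus was not absent. Rn45s is also on it, and the 45S row was not matched to that name.

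The authors' rRNA read class was far smaller than the 45S row, and its share of total reads overlapped between MI and sham libraries. It held 7519 and 7123 reads in the MI libraries, and 13483 and 7343 reads in the sham libraries. As a share of total reads these are 0.0520% (95% Wilson interval 0.0509 to 0.0532) and 0.0600% (0.0586 to 0.0614) in MI. In sham libraries they are 0.0547% (0.0538 to 0.0557) and 0.0567% (0.0554 to 0.0580). The means of 0.0560 ± 0.00564% in MI and 0.0557 ± 0.00136% in sham libraries (SD, n = 2 each) differed by less than the spread between replicates (exact two-sided permutation test, p = 1, where 0.333 is the smallest possible). Of the reads assigned to any class, the rRNA class was 0.0944% and 0.120% in MI and 0.0818% and 0.106% in sham libraries, higher in MI within each replicate number but overlapping between groups (exact two-sided permutation test, p = 0.667). Reads of the 45S row, which the authors counted as other RNA, were 9.01% and 12.4% of total reads in MI and 7.08% and 7.74% in sham libraries. They outnumbered the whole rRNA class 173-fold and 207-fold in MI and 129-fold and 137-fold in sham libraries. No source used here says which sequences the class holds. GENCODE M21 annotates 355 rRNA transcripts and 2 mitochondrial ones, mt-Rnr1 and mt-Rnr2, and none of them had a row in any table.

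Reads per UMI differed among the ribosomal rows. The 3 rows together had 9.85 and 10.4 reads per UMI in the MI libraries, against 11.9 and 10.2 in the sham libraries. All other features had 8.73 and 9.21 reads per UMI in MI, and 10.5 and 8.85 in sham libraries. The sum of the rows, most of which is 45S, lay above the other features in each library. Gm42418 had 8.26 and 8.33 reads per UMI in MI and 10.5 and 8.57 in sham libraries, below the other features in MI replicate 1, MI replicate 2 and sham replicate 2. The 18S row had 10.5 and 9.19 in MI and 13.4 and 9.24 in sham libraries, below the other features in MI replicate 2. Sham replicate 1, the deepest library, had the most reads per UMI for each row and for the other features. Counted as reads, 45S was 1.65-fold, 18S 1.56-fold and Gm42418 1.44-fold of the sham mean in MI libraries, per 1000000 reads of all tables.

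The snoRNAs that act on ribosomal RNA were sparse in the same libraries. C/D box snoRNAs guide methylation or cleavage of ribosomal RNA by pairing with it, and 13 of them were listed in at least 1 library. Beside 6.74% of all tested features called, 0 passed of the 6 that could be tested. Of the 5 of these that were listed in all 4 libraries, 4 had a log2 fold change above 0, with a median of 0.41. The median was 0.15 over all 638 tested features and 1.38 over the 219 of the other RNA table in the same fit. Fitted within the other RNA table alone, 1 of the 5 was above 0 and their median was -0.56, beside a median of 0.26 over the 233 features tested there. Snord118, the remaining one tested, had 15 and 11 UMIs in MI and was unlisted in sham libraries, so that it passed the filter through MI alone. Of the 2 most abundant, Snord14c had 66 and 72 UMIs in MI and 48 and 25 UMIs in sham libraries (log2 fold change 1.38, SE 0.38, adjusted p = 0.113 by edgeR). It was called in 3 alternatives. Its edgeR adjusted p was 0.0368 with unlisted features at 9 UMIs, 0.0240 with features listed in all 4 libraries and 0.0171 with a replicate block. In the same order, these fits called 121 of 860, 78 of 418 and 87 of 638 tested features. The fit without these changes called 43 of 638. Snord93 had 53 and 34 UMIs in MI and 95 and 41 UMIs in sham libraries (log2 fold change -0.21, SE 0.28, adjusted p = 0.765). Of the 2 listed H/ACA snoRNAs, which guide pseudouridylation, Snora44 had 33 and 12 UMIs in MI and 66 and 16 UMIs in sham libraries (edgeR log2 fold change -0.39, SE 0.71, adjusted p = 0.839), and Snora41 had 20 UMIs in MI replicate 1 and no row elsewhere.

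Several of the listed C/D snoRNAs carry long stretches complementary to the 18S copy, and 2 pairs are shown here with the 18S stretch that each matches. Capitals mark the longest complementary run, found without G-U pairs, in the snoRNA and in 18S, from the GENCODE M21 transcripts on GRCm38.
Snord57 (chr2:130278016-130278087): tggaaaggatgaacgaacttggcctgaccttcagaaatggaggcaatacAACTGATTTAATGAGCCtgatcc
18S facing Snord57 (chr17:39846431-39846477): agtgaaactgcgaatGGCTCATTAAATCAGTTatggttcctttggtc
Snord14c (chr9:40803583-40803668): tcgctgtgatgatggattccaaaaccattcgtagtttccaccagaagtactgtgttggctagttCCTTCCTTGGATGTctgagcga
18S facing Snord14c (chr17:39846802-39846845): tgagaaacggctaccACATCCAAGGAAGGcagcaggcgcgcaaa
The Snord57 run has 17 bases and faces bases 94 to 110 of the 18S copy, counted from its first base. Snord14c and Snord14d, copies of U14, which is needed for 18S processing in yeast, share a run of 14 bases that faces bases 465 to 478. Their UMIs may be split between the copies by the authors' counting, so the values of each are uncertain. Snord45c has a run of 16 bases facing bases 156 to 171. Runs of 14 bases or more were present in 9.18% of all 98 Snord transcripts of the annotation, and that length was chosen after the runs had been seen. All 3 stretches lie before base 606, where Gm42418 begins, and so in the part of 18S that Gm42418 lacks. Snord57 had 23 and 13 UMIs in MI and 23 and 12 UMIs in sham libraries (edgeR log2 fold change 0.41, SE 0.82, adjusted p = 0.852). Snord14d had 70 and 50 UMIs in MI and 67 and 20 UMIs in sham libraries (log2 fold change 0.98, SE 0.38, adjusted p = 0.226). Snord45c was listed in sham replicate 1 alone, with 10 UMIs.

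Small structural RNAs made by RNA polymerase III showed no called difference either. Of the 8 listed, 6 were tested and 0 passed, where 6.74% of all tested features were called. These 6 were listed in all 4 libraries, 4 had a log2 fold change above 0 and their median was 0.34. The median was 0.15 over all tested features and 1.38 over those of the other RNA table. Above 0 were Rn7s1 (0.61), Rn7s6 (0.86), Rn7s2 (0.63) and Vaultrc5 (0.07), and below 0 the Y RNAs Rny1 (-0.62) and Rny3 (-0.11). UMIs may be split among the Rn7s rows by the authors' counting, so these rows may not be separate measurements. Within the other RNA table alone 0 of the 6 were above 0, with a median of -0.67 beside 0.26 over the features tested there. Vaultrc5, the vault particle RNA, had 954 and 638 UMIs in MI and 1394 and 640 UMIs in sham libraries (edgeR log2 fold change 0.07, SE 0.14, adjusted p = 0.839). Rn7s2, a 7SL RNA of the signal recognition particle that binds ribosomes, had 967 and 829 UMIs in MI and 975 and 568 UMIs in sham libraries (log2 fold change 0.63, SE 0.21, adjusted p = 0.162). Mitochondrial ribosomal RNA had no row, but 10 mitochondrial tRNAs did. Of the 5 tested, 1 rose, mt-Ts1, a mitochondrial serine tRNA, with 450 and 363 UMIs in MI and 166 and 93 UMIs in sham libraries (log2 fold change 2.06, SE 0.21, adjusted p = 0.0166 by edgeR). Over all tested features 5.8% were called higher, as were 2 of the 124 tested features of the tRNA tables. Leaving out any 1 library ended the call of mt-Ts1, at adjusted p = 0.0547 to 0.169. The other serine tRNA, mt-Ts2, had 104 and 119 UMIs in MI and 219 and 113 UMIs in sham libraries (log2 fold change -0.10, SE 0.34, adjusted p = 0.927), a value that was 0.09 without TMM.

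By its profile over the 4 libraries, Gm42418 was nearest to 18S. Likeness was the Euclidean distance between log2 UPM centred over the libraries, as a description over 4 libraries and 417 compared features. The distance to 18S was 0.194, rank 1, and that to 45S was 0.296, rank 8. Most of Gm42418 is 18S sequence, and the split of reads between both rows is unknown. Their likeness cannot be told apart from an effect of shared reads. Outside the ribosomal rows, the nearest were miR-106b-3p (0.225), with 44.7 and 85.7 UPM in MI and 28.9 and 46.9 UPM in sham libraries, tRNA-Leu-TAG-3-1 (0.255) and miR-106b-5p (0.258). All 3 are low features with 11 to 52 UMIs in a library, so that counting error is a large part of their profiles.

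Markers of blood cells and tissues were set beside the ribosomal values. The 4 red cell miRNAs, all listed in every library, summed to 94961 and 85398 UPM in MI and to 86379 and 68465 UPM in sham libraries, which overlapped. Most of each sum was miR-16-5p, with 82036 and 75437 UPM in MI and 77886.5 and 60459 UPM in sham libraries. Of the 4, miR-451a and miR-486a-5p were higher in both MI libraries than in both sham libraries. The groups overlapped for miR-144-3p and miR-16-5p. The 2 markers of myeloid cells and platelets summed to 4947 and 5103 UPM in MI and to 7279.5 and 5547 UPM in sham libraries. The hepatocyte miRNA miR-122-5p had 2824 and 2681 UPM in MI and 8650 and 7564 UPM in sham libraries, without overlap. The 3 heart muscle miRNAs summed to 1044 and 1084 UPM in MI and to 166 and 123 UPM in sham libraries, with miR-208a-3p unlisted in sham and miR-499-5p unlisted in all libraries. The endothelial miR-126a-3p had 3353 and 3553 UPM in MI and 3817 and 2624 UPM in sham libraries. The part of any of these sources in the ribosomal values was not tested.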

How the data were processed

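Plasma sEV RNA was turned into libraries with the QIAseq miRNA kit after centrifugation of blood and Trizol extraction, per the labels. The authors deposited raw counts: reads per class, and UMI and read counts per feature. No source used here names the aligner, its settings, the annotation or the genome build. No listed feature had fewer than 10 UMIs, and unlisted features were entered as 0. A divider line between miRNAs and piRNAs, which names no feature, was left out. Of 409 other RNA transcript identifiers, 397 matched GENCODE M21 (GRCm38).

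UPM are UMIs per 1000000 UMIs of the miRNA, piRNA, tRNA and other RNA tables. All features were fitted together with edgeR 4.0.16 (R 4.3.3): TMM factors, filterByExpr (minimum count 10, minimum total 15), the two-sided quasi-likelihood F-test and Benjamini-Hochberg adjustment over all tested features at 0.05. Each standard error is |log2 fold change| divided by the root of the F statistic. The fit was tested on counts simulated with the same dispersion for all features and with changes balanced between directions. The calls in the real data were not balanced in this way, so that test does not cover this setting. The rRNA class share was compared with an exact permutation test. Alternatives were read counts, other scalings and filters, DESeq2 1.42.0, a replicate block, leaving out each library and, chosen after seeing the data, division by tRNA UMIs. Intervals cover counting error only, and reads of the class table are not independent molecules.

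The rows, lists and tests were chosen with earlier results of these data known. Features were named by a rule (Gm42418, rows listed in all 4 libraries, the 2 most abundant of each list, the 3 nearest to Gm42418). Snord57, Snord14d, Snord45c, Snord118, Rn7s1, Rn7s6, Rny1, Rny3, 45S, 18S and the glycine tRNA were named after their values were seen.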

Additional observations from a re-analysis of the deposited data

How the results depend on the processing

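The count of ribosomal rows past the threshold was 0 of 3 in the edgeR fit and in all 13 alternatives. Among these, the fit of the other RNA table alone called 0 of all 233 features. Each fit without 1 library left 1 library in a group. A count of 0 in those fits therefore says little about the ribosomal rows. Dividing by the other RNA table turned the log2 ratio of MI over sham to -0.062 for the sum of the 3 rows, -0.060 for 45S with 18S and -0.16 for Gm42418, and the fit within that table gave -0.45, -0.45 and -0.54 for 45S, 18S and Gm42418. That table's own total was higher in MI relative to the other tables, but most of this total is the 3 rows themselves. They made up 87.3% and 90.2% of its UMIs in MI and 91.5% and 93.7% in sham libraries. The rest of the table had a 2.66-fold ratio of MI over sham as a share of all UMIs. Leaving out 1 library each, the fitted value of Gm42418 ran from -0.0051, without MI replicate 2, to 0.78, without sham replicate 2. In the same way the log2 ratio of group means ran from 0.41 to 1.013 for the sum, from 0.42 to 1.015 for 45S with 18S and from 0.24 to 1.10 for Gm42418. The difference in the rRNA class share ran from -0.0037 to 0.0043 percentage points, being -0.0037 without MI replicate 2 and -0.00067 without sham replicate 1, beside 0.00029 with all libraries and 0.0131 as a share of assigned reads, and that in reads per UMI from -1.77 to -0.018. Library size without TMM gave a median log2 fold change of all features of 0.35, against 0.15 with TMM, and moved the fitted values of the 3 rows to 0.75, 0.74 and 0.63. Called features numbered 43 in the fit (37 higher, 6 lower), against 27 with read counts, 72 with DESeq2, 92 with no low-count filter, 121 with unlisted features at 9 UMIs, 78 with features listed in all 4 libraries and 87 with a replicate block.

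Replicate numbers are shared between groups, but the labels do not say that a number marks a pair. Deviations from the group means correlated at 0.325 between same-numbered libraries over 418 features. As each group has 2 libraries, the opposite pairing gives -0.325 by construction. Replicate 1 also held more UMIs than replicate 2 in both groups, so the value does not show that numbers mark pairs. With the replicate block, the log2 ratio was 0.73 for the sum, 0.73 for 45S with 18S and 0.65 for Gm42418, and no ribosomal row was called (45S adjusted p = 0.400). The planned sum of mitochondrial ribosomal RNA had no rows and was not run. The planned sum of 5S copies and other nuclear ribosomal RNA found no row by annotation. The rows 45S and 18S, added after the files had been read, were put in its place. With 2 libraries per group, the spread between replicates and not the UMI counts sets the precision of the ribosomal values.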
